A study of Rattus norvegicus with 17 samples.

Results

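The genes described here are the cardiac lineage transcription factors, a list of 10 genes given by symbol: Gata4, Gata6, Nkx2-5, Mef2a, Mef2c, Tbx5, Tbx20, Hand2, Srf and Myocd. The platform annotation named a probe set for 9 of them, each with 1 probe set, among 14506 genes measured by 29214 probe sets; Mef2c was not analysed here. The rule that picks them uses no measured value. Ventricular myocytes cultured from newborn Sprague-Dawley rats, labelled as 5 days old in culture, received uremic plasma (10%) collected before nocturnal hemodialysis (NHD, long overnight dialysis; 6 arrays) or after it (6 arrays), control plasma (3 arrays), or phenylephrine, an alpha-adrenergic agonist (2 arrays). Uremic plasma comes from patients whose kidneys have failed. All groups shared the cell type, strain and culture age, and the labels name no genetic change. They give neither the share of control plasma, nor the medium and dose of phenylephrine, nor a batch, nor whether the biological replicates of a group came from separate cultures or plasma donors, so the p-values measure the spread between these arrays, which may be technical.

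These factors form the core network that makes a cell a heart muscle cell. Gata4 and Gata6 are zinc finger proteins that bind the GATA sequence, Nkx2-5 is a homeodomain protein, Tbx5 and Tbx20 are T-box proteins, and Hand2 is a basic helix-loop-helix protein of the right ventricle. Mef2a, Mef2c and Srf are MADS-box proteins, and Myocd (myocardin) is a coactivator that Srf recruits to the CArG box of muscle genes. They bind each other and each other's genes, and together switch on sarcomere, ion channel and natriuretic peptide genes. In cultured myocytes, Gata4 and the MADS-box factors are also known as mediators of the growth response to alpha-adrenergic agonists.

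Upstream sequence was held for 7 of the 10 members in RefSeq (build GRCr8), and is shown for the 3 of them whose level passed a test below and for Srf, whose upstream sequence carries its own binding motif. Gata6 lies at chr18:2460659-2460908 on the plus strand, Tbx20 at chr8:31534052-31534259 on the minus strand, Hand2 at chr16:37931489-37931738 on the minus strand and Srf at chr9:21923826-21924049 on the plus strand. Each line runs 5′ to 3′ toward the start site and leaves out bases inside the annotated gene. Capitals mark matches, on either strand, to GATAA for the GATA factors, AAGTG for Nkx2-5, AGGTGT for T-box factors, CATCTG for Hand2, the MEF2 motif and the CArG box of Srf.
Gata6: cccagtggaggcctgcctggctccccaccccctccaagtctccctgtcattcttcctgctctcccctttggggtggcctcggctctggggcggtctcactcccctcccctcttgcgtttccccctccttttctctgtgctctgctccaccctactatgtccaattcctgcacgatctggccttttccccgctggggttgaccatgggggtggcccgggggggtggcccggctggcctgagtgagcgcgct
Tbx20: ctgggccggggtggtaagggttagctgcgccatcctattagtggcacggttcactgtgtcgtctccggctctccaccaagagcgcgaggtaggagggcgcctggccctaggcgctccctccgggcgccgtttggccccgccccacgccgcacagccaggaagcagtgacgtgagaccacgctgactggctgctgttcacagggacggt
Hand2: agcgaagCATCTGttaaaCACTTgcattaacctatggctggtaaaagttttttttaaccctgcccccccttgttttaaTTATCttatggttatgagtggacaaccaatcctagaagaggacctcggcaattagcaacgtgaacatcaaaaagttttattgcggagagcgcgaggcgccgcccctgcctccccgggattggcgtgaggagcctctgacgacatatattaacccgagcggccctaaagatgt
Srf: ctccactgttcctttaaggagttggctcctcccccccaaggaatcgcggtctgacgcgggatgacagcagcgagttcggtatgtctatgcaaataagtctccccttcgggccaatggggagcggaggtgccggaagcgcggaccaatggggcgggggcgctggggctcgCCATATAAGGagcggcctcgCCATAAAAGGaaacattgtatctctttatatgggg

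In the 250 bases before the start, the Hand2 sequence held 1 match each for the Hand2 motif, beginning 243 bases before the start, for Nkx2-5 at 232 and for GATA at 172. Srf held 2 CArG boxes, at 81 and 61 bases before the start. At 37 it held a TATAAA on the opposite strand, which the line above shows as tttata. All motifs in this paragraph were sought on either strand. Neither Gata6 nor Tbx20 held a match to any of the 6 motifs in this window, although each held a GC box (GGGCGG). The windows of Mef2a, Tbx5 and Nkx2-5, not shown, lie inside the annotated span of their genes. That of Mef2a held 1 MEF2 motif at 40 bases before the start used. That of Tbx5 held 1 GATA motif at 225, and that of Nkx2-5 none of the 6. Among 27457 promoters of the same length, 23.2% held the GATA motif, 40.6% that of Nkx2-5, 11.4% the T-box motif, 13.7% the Hand2 motif, 3.07% the MEF2 motif, 1.5% a CArG box, 13.1% a TATAAA and 32.4% a GC box. A match describes letters and does not show binding.

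Levels are log2 values made by the authors with RMA, so that a difference of 1 is a factor of 2 in signal. They have no detection call, and levels of different probe sets cannot be set against each other. The arrays agreed in their centre, with medians between 6.89 and 7.03. They differed in scatter. The median gene had a standard deviation (SD) of 0.129 with control plasma, 0.258 before NHD, 0.161 after NHD and 0.0890 among phenylephrine arrays, and the median member had 0.199, 0.403, 0.173 and 0.0903. SDs from 3 and 2 arrays are imprecise and tend to come out low. Only before and after NHD, with 6 arrays each, can be set side by side. All 9 members were more scattered before than after NHD, as were 81.2% of all genes. Before replicate 5 lay among the control arrays on the first principal component of all probe sets (-66.50, against -72.24 to -50.31), and before replicate 6 beyond the after NHD arrays (40.85, against 15.15 to 37.20).

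Heart muscle markers were present throughout, and the mean level of 10 of them (among them Tnnt2, Myh6 and Ryr2) was 12.38 to 12.42 with control plasma, 12.45 to 12.94 before NHD, 12.85 to 13.04 after NHD and 12.76 to 12.77 with phenylephrine. The control arrays were therefore the lowest. The mean of 12 fibroblast markers was 8.70 to 8.80 with control plasma, 7.81 to 10.08 before NHD, 8.05 to 9.99 after NHD and 10.07 to 10.29 with phenylephrine. The mean of 9 proliferation genes was 7.15 to 7.20, 6.54 to 9.16, 9.08 to 10.17 and 10.14 to 10.66 in the same order. The means of 9 smooth muscle and pericyte markers (9.39 to 10.44 over all arrays), 8 endothelial (6.25 to 7.10), 7 leukocyte (5.74 to 6.71) and 4 epicardial markers (6.76 to 7.80) were highest, on average, with phenylephrine. Their part in the results below was not tested. In such bulk RNA, fewer cells of a type and less RNA per cell cannot be told apart.

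**Figure D1:**
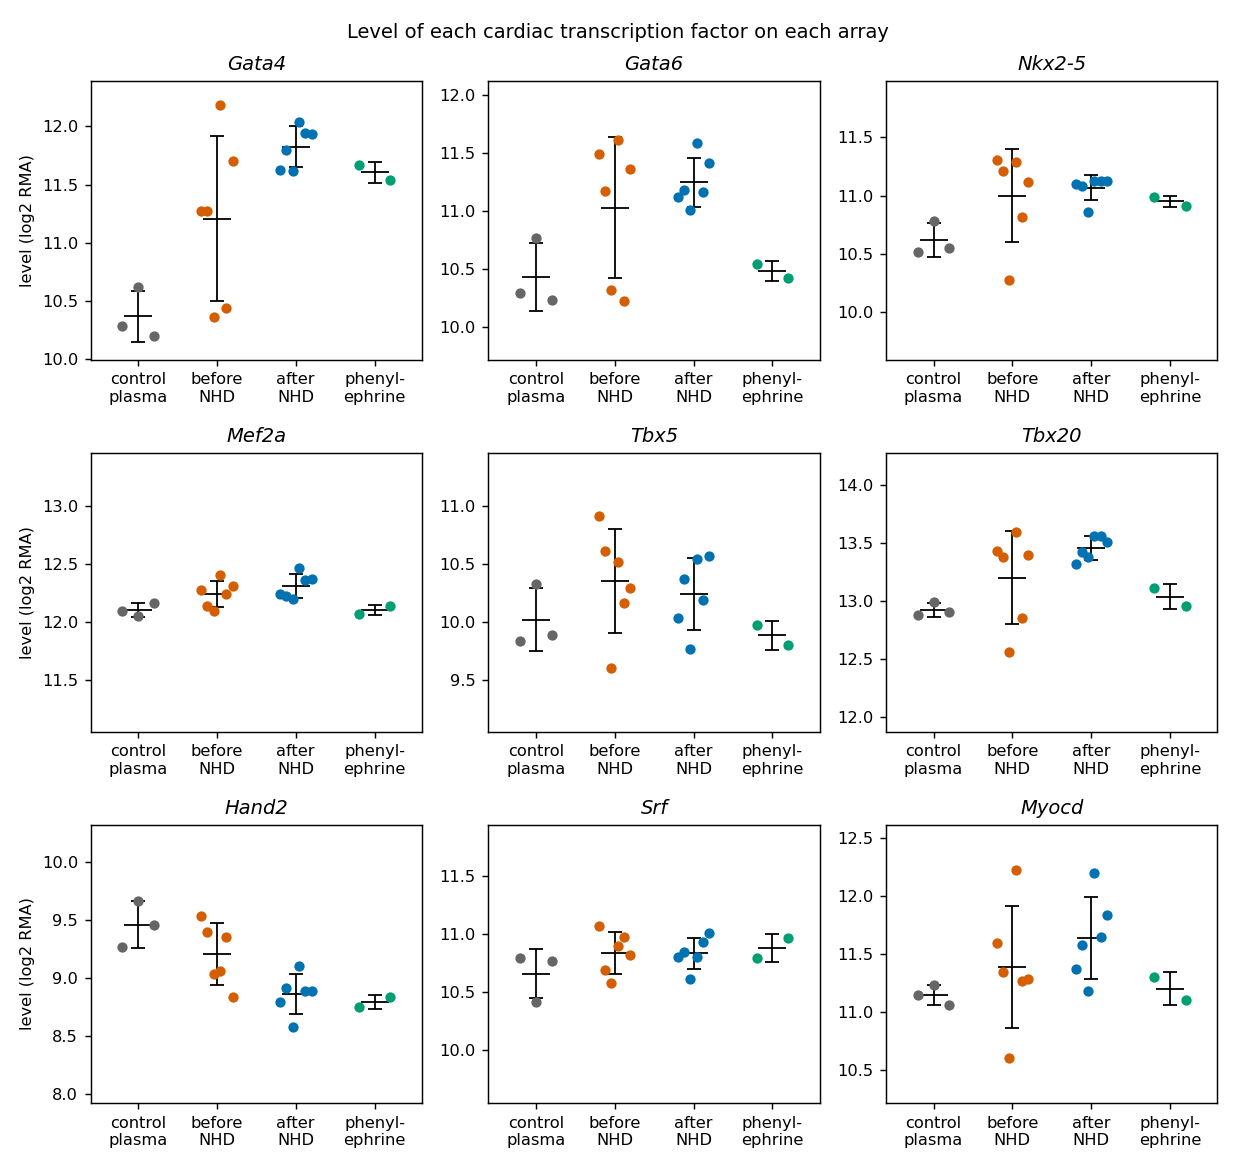
Level (log2 RMA) of each measured factor on each of 17 arrays, by group; points are arrays in order of replicate number, the long dash is the group mean and the bars are ± 1 SD (n = 3, 6, 6 and 2), and every panel spans the same number of log2 units. Gata4 lies at 10.19 to 10.62 with control plasma and at 11.62 to 12.03 after NHD, while Hand2 runs the other way.

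Gata4 was the factor with the largest difference. With control plasma its 3 arrays read 10.29, 10.62 and 10.19. Before NHD it ran from 10.36 over a median of 11.27 to 12.19, after NHD from 11.62 over 11.87 to 12.03, and the phenylephrine arrays read 11.67 and 11.54. Every after NHD and phenylephrine array was above every control array. Of all genes, 38.1% and 63.7% did not overlap in these 2 comparisons. Before replicates 3 and 5 lay within the control range and the other 4 before NHD arrays above it. Against control plasma, Gata4 was 1.46 ± 0.30 log2 units higher after NHD (standard error, SE; 2.75-fold; adjusted p = 0.00226, limma with Benjamini-Hochberg adjustment over all probe sets) and 1.24 ± 0.39 higher with phenylephrine (2.36-fold; adjusted p = 0.0339). Before NHD it was 0.84 ± 0.30 higher than with control plasma, which did not pass (adjusted p = 0.102). After against before NHD gave 0.62 ± 0.24 (adjusted p = 0.182). In order, the group means were 10.37 with control plasma, 11.21 before NHD, 11.60 with phenylephrine and 11.83 after NHD, and no neighbours in that order differed past the threshold.

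Gata6, the close relative of Gata4 that shares much of its role in the embryonic heart, passed after NHD but not with phenylephrine. It read 10.29, 10.76 and 10.23 with control plasma and 10.54 and 10.42 with phenylephrine. Its range was 10.23 to 11.61 before NHD (median 11.26) and 11.00 to 11.59 after NHD (median 11.17). The phenylephrine arrays lay inside the control range and below all after NHD arrays, and before replicates 3 and 5 were again low, at 10.31 and 10.23. Between phenylephrine and after NHD, 27.4% of all genes did not overlap, and between after NHD and control plasma 38.1%. Gata6 rose after NHD against control plasma by 0.81 ± 0.27 (1.76-fold; adjusted p = 0.0328). With phenylephrine the difference from control was 0.05 ± 0.35, with a 95% interval of -0.68 to 0.79. Against before NHD the after NHD difference was 0.22 ± 0.22 (adjusted p = 0.654). The order of means was control plasma (10.43), phenylephrine (10.48), before NHD (11.03) and after NHD (11.24), and no neighbours in it differed past the threshold.

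The response of the 2 GATA factors could be compared on the same arrays, since each array measures both. Relative to its control mean, Gata4 exceeded Gata6 by 1.18 to 1.19 log2 units on the phenylephrine arrays and by 0.51 to 0.85 on the after NHD arrays (mean 0.65 ± 0.12 SD, n = 6). The before NHD arrays ran from -0.16 to 0.65 and the control arrays from -0.08 to 0.06. All after NHD and phenylephrine arrays were thus above all control arrays in this difference, and the phenylephrine arrays above all others. It was not tested, and it shows unequal change of the 2 genes only.

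**Figure D2:**
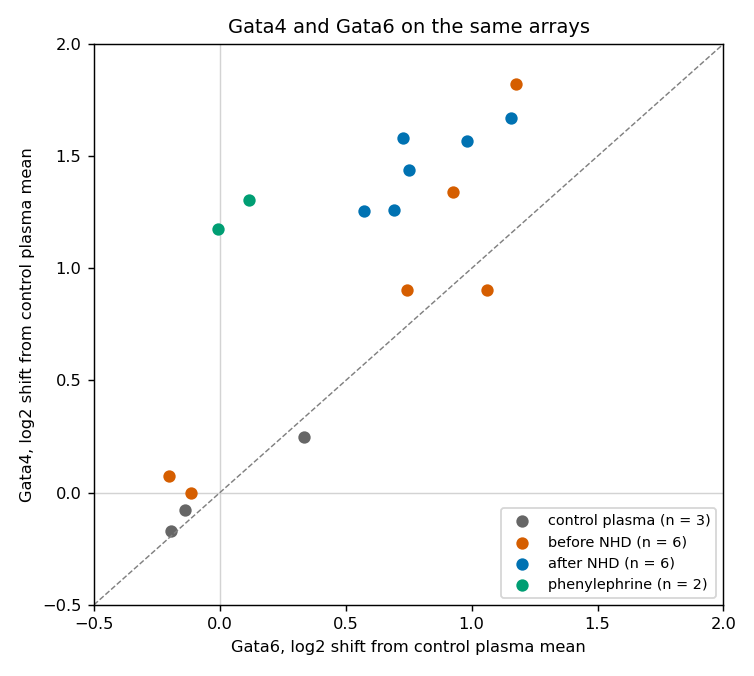
Shift of Gata4 (vertical) against that of Gata6 (horizontal) from their control plasma means, in log2 units, on each of 17 arrays; the dashed line marks equal shifts. The phenylephrine arrays lie at a Gata6 shift of -0.01 and 0.11 but a Gata4 shift of 1.18 and 1.30, and before replicates 3 and 5 lie beside the control arrays.

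Nkx2-5, among the earliest markers of the heart lineage and a partner of Gata4, was the member nearest the threshold without passing. It read 10.51, 10.78 and 10.55 with control plasma, 10.27 to 11.30 before NHD (median 11.16), 10.86 to 11.13 after NHD (median 11.11), and 10.99 and 10.91 with phenylephrine. All after NHD and phenylephrine arrays were above the highest control array, in comparisons where 38.1% and 63.7% of all genes did not overlap. Of the before NHD arrays, 5 were above it and replicate 3 was below every control array. The differences from control plasma were 0.46 ± 0.18 after NHD (adjusted p = 0.066), 0.39 ± 0.18 before NHD (0.189) and 0.34 ± 0.23 with phenylephrine (0.33), and none passed. From before to after NHD it differed by 0.07 ± 0.14, with a 95% interval of -0.24 to 0.38. The means ran from 10.61 with control plasma over 10.95 with phenylephrine and 11.00 before NHD to 11.07 after NHD, with no neighbours past the threshold.

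Of the T-box factors, Tbx20 passed in 1 comparison and Tbx5 in none. Tbx20, which is needed to keep adult heart muscle working, read 12.88, 13.00 and 12.90 with control plasma and 13.32 to 13.56 after NHD (median 13.47). Its before NHD arrays ran from 12.56 to 13.59 (median 13.39), and the phenylephrine arrays read 13.12 and 12.96. After NHD arrays were all above the control arrays, and before replicates 3 and 5 below them. Between after NHD and control plasma, 38.1% of all genes did not overlap. Tbx20 rose after NHD against control plasma by 0.53 ± 0.18 (1.45-fold; adjusted p = 0.0326). Before NHD (0.28 ± 0.18; adjusted p = 0.338) and with phenylephrine (0.11 ± 0.23; adjusted p = 0.768) it did not pass. The order was 12.93 with control plasma, 13.04 with phenylephrine, 13.20 before NHD and 13.46 after NHD, with no neighbours past the threshold.

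Tbx5, the factor mutated in Holt-Oram syndrome, read 9.84, 10.33 and 9.89 with control plasma, 9.61 to 10.91 before NHD (median 10.41), 9.77 to 10.57 after NHD (median 10.28), and 9.98 and 9.80 with phenylephrine. All 4 groups overlapped, with the highest array before NHD. No comparison passed. The difference from control plasma was 0.33 ± 0.23 before NHD (adjusted p = 0.388), 0.23 ± 0.23 after NHD (0.501) and -0.13 ± 0.30 with phenylephrine (0.795), and after against before NHD gave -0.11 ± 0.19. The 95% interval of the after NHD difference from control, -0.27 to 0.72, still holds a change as large as that of Tbx20.

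Hand2 was the one member that fell. It read 9.26, 9.66 and 9.45 with control plasma, 8.84 to 9.53 before NHD (median 9.20), 8.58 to 9.10 after NHD (median 8.89), and 8.74 and 8.83 with phenylephrine. All after NHD and phenylephrine arrays were below the lowest control array, where 38.1% and 63.7% of all genes did not overlap. The before NHD arrays were divided, with 3 inside the control range and 3 below it. Against control plasma Hand2 fell by 0.60 ± 0.15 log2 units after NHD (1.51-fold lower; adjusted p = 0.00729) and by 0.67 ± 0.19 with phenylephrine (1.59-fold lower; adjusted p = 0.0225). Before NHD the difference was -0.26 ± 0.15 (adjusted p = 0.29), and after against before NHD gave -0.34 ± 0.12 (adjusted p = 0.146). In order, the means were 8.79 with phenylephrine, 8.86 after NHD, 9.20 before NHD and 9.46 with control plasma, with no neighbours past the threshold. Whether the motif matches upstream of Hand2, given above, bear on its level was not tested.

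For the MADS-box factors no comparison passed. Mef2a, which binds A/T-rich sites of muscle genes, read 12.10, 12.05 and 12.17 with control plasma, 12.10 to 12.40 before NHD (median 12.26), 12.20 to 12.47 after NHD (median 12.30), and 12.07 and 12.14 with phenylephrine. After NHD arrays were all above the control arrays, but by a small step of 0.21 ± 0.09 (adjusted p = 0.092; 95% interval 0.02 to 0.39). Of all genes, 38.1% did not overlap between the after NHD and control arrays. The differences from control were 0.14 ± 0.09 before NHD (adjusted p = 0.333) and -0.0011 ± 0.11 with phenylephrine (0.996), and after against before NHD gave 0.07 ± 0.07. Its mean level ran from 12.10 with phenylephrine and 12.11 with control plasma to 12.25 before and 12.31 after NHD.

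Srf, the serum response factor, read 10.80, 10.42 and 10.77 with control plasma, 10.58 to 11.07 before NHD (median 10.86), 10.62 to 11.01 after NHD (median 10.83), and 10.80 and 10.97 with phenylephrine. The groups overlapped in every comparison. Differences from control plasma were 0.18 ± 0.12 before NHD (adjusted p = 0.374), 0.18 ± 0.12 after NHD (0.302) and 0.22 ± 0.16 with phenylephrine (0.351). Between before and after NHD it differed by -0.002 ± 0.10, with a 95% interval of -0.21 to 0.21. Its means were 10.66 with control plasma, 10.84 in both NHD groups and 10.88 with phenylephrine.

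Myocd read 11.14, 11.23 and 11.06 with control plasma and 11.30 and 11.10 with phenylephrine. Before NHD it ran from 10.60 to 12.23 (median 11.31) and after NHD from 11.18 to 12.19 (median 11.61). The control and phenylephrine arrays were tightly grouped, and both NHD groups were wide, with replicate 3 lowest and replicate 4 highest in each. The difference from control plasma was 0.49 ± 0.26 after NHD (adjusted p = 0.172; 5 of 6 arrays above every control array), 0.24 ± 0.26 before NHD (0.592) and 0.05 ± 0.33 with phenylephrine (0.93). From before to after NHD the difference was 0.25 ± 0.21 (adjusted p = 0.574). Means ran from 11.15 with control plasma over 11.20 with phenylephrine and 11.39 before NHD to 11.63 after NHD, with no neighbours of Tbx5, Mef2a, Srf or Myocd past the threshold.

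**Figure D3:**
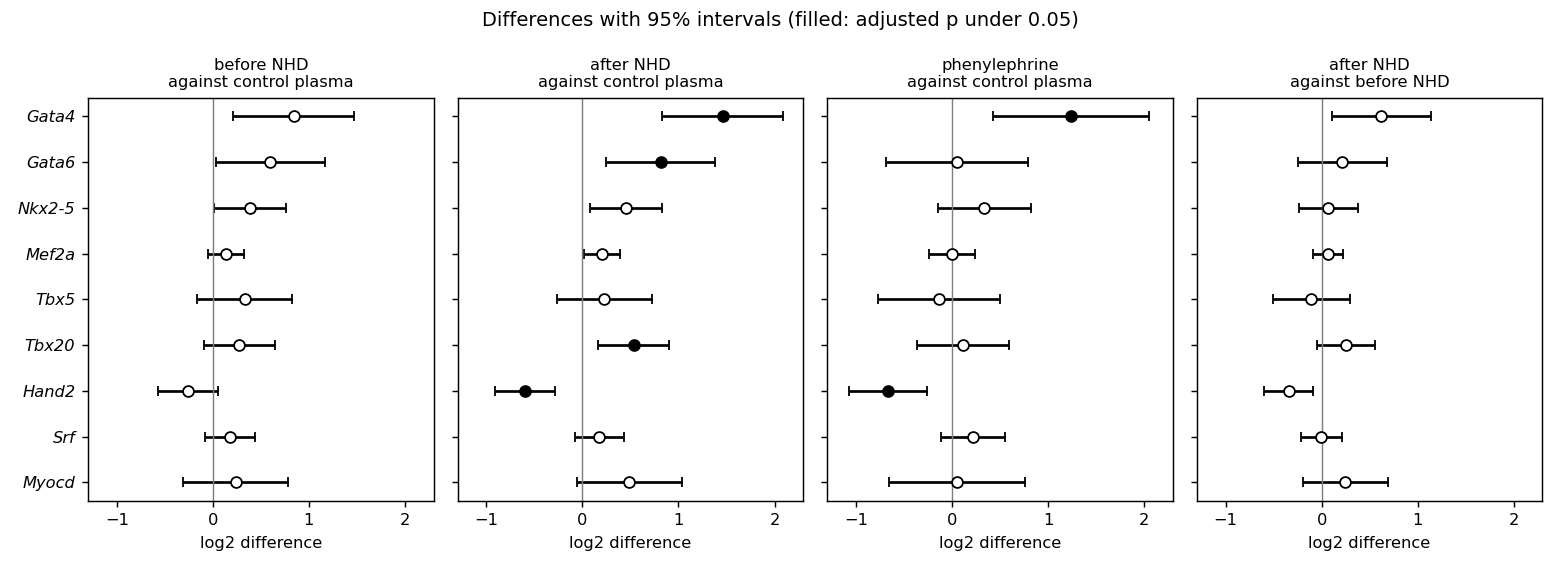
Log2 difference of each factor in 4 comparisons, with its 95% interval from the fit; filled points passed an adjusted p of 0.05. After NHD against control plasma has 4 filled points (Gata4, Gata6, Tbx20 and Hand2) and phenylephrine against control plasma has 2 (Gata4 and Hand2), while the panels for before NHD against control plasma and for after against before NHD have none.

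Counted over the 9 measured members, 3 rose and 1 fell after NHD against control plasma, in a comparison in which 28.2% of all probe sets passed. With 1 probe set per gene, as for the members, 34.5% passed. Among the brighter probe sets (mean level at or above the median) 44.7% did. In these runs 4 and 5 of the 9 members were called. All 9 lay at or above the 70.3 percentile of mean level among genes. Their median log2 difference was 0.46, against -0.07 over all 14506 genes. The groups did not overlap for 6 of the 9 (Gata4, Gata6, Nkx2-5, Mef2a, Tbx20 and Hand2), as for 38.1% of all genes. With phenylephrine against control plasma 1 rose and 1 fell, where 18.7% of probe sets passed (25.9% with 1 probe set per gene). The median was 0.05 against -0.06. The groups did not overlap for 3 of the 9 (Gata4, Nkx2-5 and Hand2), beside 63.7% of all genes. Before NHD against control plasma 0 of 9 passed with limma (3 had an unadjusted p under 0.05). Of all probe sets 4.93% did, and with 1 probe set per gene 7.02%. The median was 0.28 against -0.05. These comparisons share the 3 control arrays. The share of all genes with an unadjusted p under 0.05 was not computed, so such counts, here and below, stand without a background.

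From before to after NHD, 0 of 9 members passed with limma (2 had an unadjusted p under 0.05: Gata4 and Hand2), where 0.397% of probe sets did. The median was 0.07 against -0.01. The before and after NHD arrays overlapped for every member, as they did for all but 0.669% of genes. Phenylephrine against before NHD called 0 of 9 (1 at an unadjusted p under 0.05, Hand2), where 4.34% of probe sets passed. Against after NHD it also called 0 (1 at an unadjusted p under 0.05), where 0.979% passed. The member in that last count was Gata6, at -0.76 ± 0.31 (adjusted p = 0.326). Phenylephrine and after NHD arrays did not overlap for 3 of the 9, beside 27.4% of all genes.

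The calls rested unequally on single arrays and settings. For after NHD against control plasma, Gata4 passed in every alternative run, while Gata6 and Tbx20 lost their call without control replicate 1 (adjusted p = 0.128 and 0.114), control replicate 3 (0.133 and 0.0992) or after replicate 6 (0.0577 and 0.054). Gata6 alone lost it without after replicate 4 (0.0555), and Tbx20 alone without after replicate 5 (0.0576) or control replicate 2 (0.0562). Tbx20 also lay under a minimum fold of 1.5. Nkx2-5 gained a call without before replicate 3 (adjusted p = 0.0076), with only the brighter probe sets (0.0489), in a fit of only the compared groups (0.00363) and with array weights (0.00207). Of all probe sets tested, 28.2%, 44.7%, 35.3% and 51.1% passed in those runs, against 28.2% in the main fit. With each array's SD as a term only Gata4 passed after NHD (Hand2, adjusted p = 0.096), and for phenylephrine neither did. Gata4 and Hand2 also lost their phenylephrine call without either phenylephrine array or without control replicate 3 (adjusted p between 0.0552 and 0.173), and Gata4 also without control replicate 1 (0.0865) and Hand2 without control replicate 2 (0.0698). In the other direction, before NHD against control plasma called Gata4 (1.01) and Nkx2-5 (0.53) without before replicate 3, and Gata4 (0.99) and Gata6 (0.76) without before replicate 5. The shares of all probe sets also rose, to 6.38% and 17.5%, from 4.93% in the main fit. After against before NHD called Gata4 (0.82, adjusted p = 0.0223) without before replicate 4 and Hand2 (-0.41, adjusted p = 0.0359) without before replicate 6. There the shares of all probe sets rose to 9.06% and 9.21%, from 0.397% in the main fit.

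**Figure D4:**
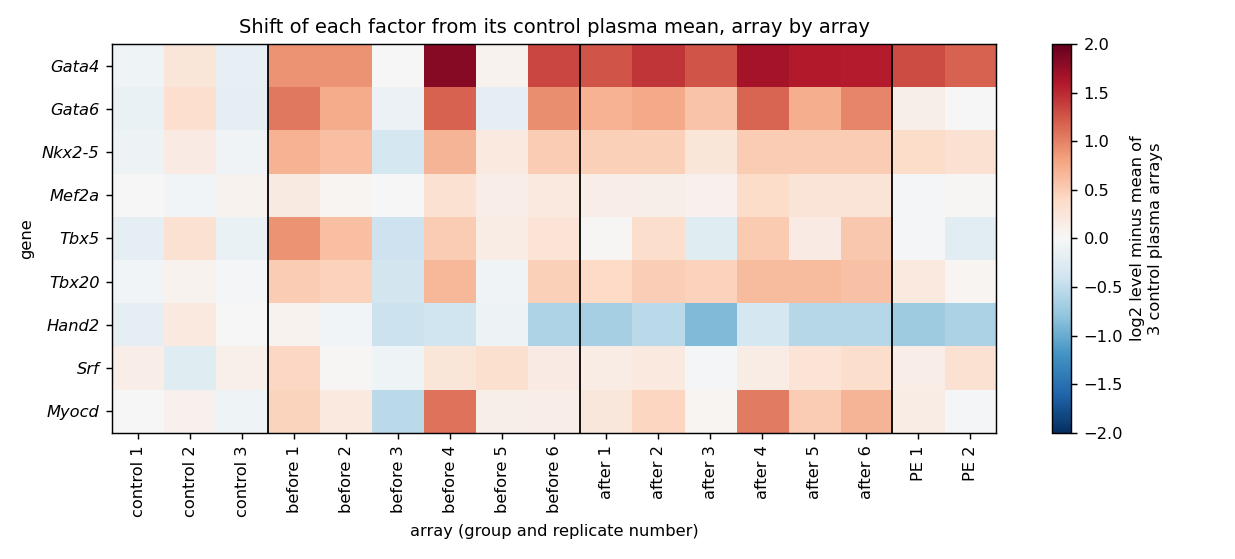
Shift of each factor (rows) from the mean of its 3 control plasma arrays, in log2 units, on each of 17 arrays (columns, by group and replicate number; PE is phenylephrine). Before replicates 3 and 5 look like the control arrays in the Gata4 and Gata6 rows, whereas Gata4 is above 0 and Hand2 below 0 in all 6 after NHD columns.

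Among the uremic plasma arrays, the same array was often the lowest for several members. Before replicate 3 was the lowest before NHD array for 7 of 9 members, and after replicate 3 the lowest after NHD array for 8 of 9, both at once for 6. Over all genes these shares were 15.6%, 17.8% and 5.28%. Replicates 4 were the highest for 5 of 9 members in each group, both at once for 4 (20.8%, 30.2% and 14.5% of all genes). The labels do not say whether equal numbers mark a shared plasma donor or culture. Before replicate 3 also had the lowest heart muscle marker mean of its group (12.45) and a high fibroblast marker mean (9.95). Before replicate 5, with Gata4 and Gata6 as low, had the next lowest heart muscle mean (12.59) and a low fibroblast mean (7.89). The other before NHD arrays had heart muscle means of 12.86 to 12.94. Before replicate 6, with the highest fibroblast mean (10.08) and the highest heart muscle mean (12.94), had Gata4 at 11.70. How the marker means bear on the factors was not tested.

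The genes closest in profile were found by the root mean square difference over the 17 arrays, each gene centred on its own mean. For Gata4, whose own SD over the arrays was 0.675, they were Slc29a2 (0.138), Cuedc1 (0.138) and Rexo4 (0.153). For Gata6 (SD 0.502) they were Dsc2 (0.153), a cadherin of the desmosome, Slc9a7 (0.159) and Zfp142 (0.176). For Tbx20 (SD 0.311) they were Tom1l2 (0.0838), Ppp6r3 (0.101) and Akap8l (0.115), and for Hand2 (SD 0.312) Tbc1d25 (0.102), Pomgnt1 (0.105) and Smad5 (0.117). No other member was among them. Between members, the closest pairs were Nkx2-5 with Tbx20 (0.135) and Mef2a with Srf (0.138), and the most distant was Gata4 with Hand2 (0.874).

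The list counts below stand beside the share of all probe sets that passed against control plasma: 28.2% after NHD, 18.7% with phenylephrine and 4.93% before NHD. With 1 probe set per gene, as in the lists, the shares were 34.5%, 25.9% and 7.02%. Over all probe sets, the before NHD share was 0% in a fit of only the compared groups. It was 0.00685% with each array's SD as a term. With single arrays left out it ran from 0% (control replicate 1 or 3) to 17.5% (before replicate 5). Of 15 measured paralogs, 2 rose and 0 fell after NHD against control plasma (median -0.02): Hand1, the left ventricular relative of Hand2, by 0.39 ± 0.12 (adjusted p = 0.0196), and Mef2d by 0.42 ± 0.13 (0.0203). Gata5 differed by 0.63 ± 0.24 without passing. In every other comparison 0 of the 15 passed with limma; 6 and 1 had an unadjusted p under 0.05 before NHD and with phenylephrine against control, and 1 and 1 with phenylephrine against before and after NHD.

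Partners and cofactors moved in both directions. After NHD against control plasma, 5 of 21 rose and 4 fell (median 0.09). Csrp3, the muscle LIM protein of the Z-disc that also acts with Gata4 in the nucleus, rose by 2.12 ± 0.40 (adjusted p = 0.00147) and Tead2 by 0.98 ± 0.22, as did Fhl2 by 0.82 ± 0.19. The ubiquitin ligase Trim32 fell by 1.07 ± 0.15. Among the others, Zfpm2 (Fog2), the protein that binds Gata4 and restrains it, fell by 0.64 ± 0.16, and the homeodomain-only protein Hopx rose by 1.21 ± 0.34. With phenylephrine 3 rose (Tead2, Csrp3 and Hopx, at 1.41, 2.46 and 1.62) and Trim32 fell by 1.47 ± 0.20. Before NHD, Trim32 alone passed, at -0.90 ± 0.15 (adjusted p = 0.0164).

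Of 14 repressors of the network, 4 fell and 1 rose after NHD against control plasma (median -0.14), where 4484 of all probe sets fell and 3754 rose. The helix-loop-helix inhibitors Id2 and Id4 fell by 1.87 ± 0.35 and 1.45 ± 0.25, and the Srf partner Elk4 by 1.02 ± 0.18. Hdac5, the class IIa deacetylase that holds Mef2 factors silent, rose by 0.73 ± 0.12 (adjusted p = 0.000826). With phenylephrine 5 fell and 2 rose (median -0.11), beside 2975 and 2496 of all probe sets, with Id2 at -2.46 ± 0.45 and Hdac5 at 0.89 ± 0.16. Before NHD, Hdac5 alone passed, at 0.50 ± 0.12 (adjusted p = 0.0356).

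Of 19 other cardiac developmental factors, 3 rose and 1 fell after NHD against control plasma (median 0.19). Prox1 rose by 1.26 ± 0.29 and Irx4, a ventricular homeodomain factor, by 1.15 ± 0.30. Isl1, a marker of cardiac progenitors, fell by 0.50 ± 0.10 (adjusted p = 0.00197). With phenylephrine 3 rose and 0 fell (median 0.12), led by Irx3 at 0.74 ± 0.13 and Irx5 at 0.83 ± 0.22. Before NHD 0 of the 19 passed with limma (5 at an unadjusted p under 0.05), and Prox1 was at 1.01 ± 0.29 (adjusted p = 0.0554).

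Structural and functional genes known as targets of these factors were mostly higher than with control plasma. Of 29 measured, 13 rose and 1 fell after NHD (median 0.41), 8 rose and 0 fell with phenylephrine (median 0.36), and 6 rose and 0 fell before NHD (median 0.37). After NHD the cardiac myosin-binding protein Mybpc3 rose by 1.17 ± 0.19, the alpha-1A adrenergic receptor Adra1a by 2.40 ± 0.39, the myosin heavy chain Myh6 by 0.84 ± 0.14 and the calcium release channel Ryr2 by 1.60 ± 0.29. Of the heart muscle markers, which overlap this list, 6 of 10 rose after NHD, 3 before NHD and 3 with phenylephrine, and none fell. Of the 9 proliferation genes, 8 rose after NHD, 8 with phenylephrine and 0 before NHD with limma (4 at an unadjusted p under 0.05). Of 12 fibroblast markers 1 (S100a4) rose after NHD and with phenylephrine, where all 12 had a positive difference.

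The list of Srf target genes, which holds Srf itself, was divided. After NHD against control plasma 3 of 20 rose and 4 fell (median -0.01). The focal adhesion protein vinculin (Vcl) rose by 1.04 ± 0.14 (adjusted p = 0.000416) and Myl9 by 0.97 ± 0.23. The matricellular gene Ccn1 fell by 1.33 ± 0.29. With phenylephrine 2 rose and 1 fell (median 0.03), with Vcl at 1.22 ± 0.18 and smooth muscle actin Acta2 at -0.40 ± 0.12. Before NHD, Vcl alone passed, at 0.73 ± 0.14.

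After against before NHD, 0 genes of the lists of paralogs, partners, repressors, other developmental factors, target genes and Srf targets passed with limma. At an unadjusted p under 0.05 there were 3 of 15, 4 of 21, 6 of 14, 2 of 19, 8 of 29 and 7 of 20. The share of all genes at that unadjusted threshold was not computed. The medians were 0.03, -0.09, -0.18, 0.05, 0.11 and -0.03 in that order. Of the marker lists, 8 of 9 proliferation genes and 1 of 12 fibroblast markers (S100a4, 1.03 ± 0.20) rose in this comparison, in which 0 of 10 heart muscle markers did with limma. Over all probe sets the share that passed was 0.397%, and 0% in a fit of only the compared groups. It was also 0% without before replicate 1, 2 or 3, or after replicate 1, 2, 3, 5 or 6. Without after replicate 4 it was 2.19%, and without before replicate 4, 5 or 6 it was 9.06%, 0.144% or 9.21%.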

How the data were processed

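The authors deposited log2 values per probe set. The submitters' processing notes name RMA, which subtracts background and forces the arrays to 1 distribution, hiding any shift common to most genes. Its version was not given in the sources used here. All columns matched a sample. Of 29214 probe sets, 15310 carried 1 symbol, 323 several and 13581 none here, and 15279 symbols were updated by Entrez number (RefSeq, GRCr8). The brightest probe set stood for a gene. Where a title carried 2 replicate numbers, the last was used.

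All 17 arrays entered 1 fit per probe set with limma 3.58.1 (R 4.3.3; lmFit, eBayes, 4 groups, 3.32 prior and 13 residual degrees of freedom) and two-sided tests, with Benjamini-Hochberg adjustment over all probe sets and a threshold of 0.05. The procedure was tested on simulated data in which each probe set had the same SD in all groups. That simulation does not cover the unequal scatter of the groups. All members were described. Of each further list up to 4 called genes by smallest p were named per comparison, or up to 2 where none passed. Zfpm2, Hopx and Gata5 (after NHD) and Hey2 (against control plasma) were chosen after their values were seen. For the 4 members called at least once, the 3 genes closest in profile were named, without provisional symbols. The members and lists were chosen with earlier results of these data known. Alternatives covered probe set filters, normalization, prior, weights, block and samples.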

Additional observations from a re-analysis of the deposited data

Results flagged for a closer look

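Nkx2-5 in after NHD replicate 3, at 10.86, lay apart from the other after NHD arrays, of which the nearest was at 11.08; the gap was 0.834 of the group's range, past Dixon's 95% critical value. It was the single such case in 18 member and group combinations examined, and chance gives about 1 in 20. The after NHD difference of Nkx2-5 from control plasma had not passed.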

How the results depend on the processing

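Of 1512 recomputed member differences (54 differences, 11 alternatives and 17 arrays left out), 1434 kept their direction and side of the threshold, 24 lost their call, 23 gained one and 31 uncalled ones changed sign. No called difference reversed. Array weights gave 2 called members for after against before NHD, 3 for before NHD and 7 for after NHD against control plasma, and 1 and 2 for phenylephrine against before and after NHD, with more calls over all probe sets as well (51.1% for after NHD against control). A term for array SD left 1 called after NHD and 0 with phenylephrine, each against control plasma (10.3% and 14.2% of all probe sets). Without the samples numbered 4, 1 was called after against before NHD (9.16% of all probe sets). A fit of only the compared groups called 1 for phenylephrine against after NHD (3.31%). Leaving out single arrays gave 0 to 1 called members for after against before NHD, where 0% to 9.21% of all probe sets passed. For before NHD against control there were 0 to 2 (0% to 17.5%), and for after NHD against control 2 to 5 (15.6% to 30.3%). Leaving out plasma arrays gave 0 to 2 for phenylephrine against control (11.4% to 21.7%) and 0 for both other phenylephrine comparisons. A fit without 1 phenylephrine array leaves a lone one, which is then assumed to vary like the other groups. Same-numbered before and after arrays correlated at -0.03 to 0.60 in their deviations (0.42, 0.60 and 0.57 for numbers 2, 3 and 4). Of 6, 3 correlated best with their own number. These values do not settle whether equal numbers share a source. The labels state no pairing, so the main fit did not pair samples. With the replicate block 3 members were called after NHD against control (Tbx20 lost, adjusted p = 0.0683), and no other call of a member changed. For Gata4 after against before NHD the block gave 0.62 ± 0.19 (adjusted p = 0.0785, limma), beside an SE of 0.24 without it. Every member had 1 probe set, so another could not be tried. The number of arrays limits precision.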

Other observations

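Against the before NHD arrays, the proliferation genes were the list that stood highest with phenylephrine: 9 of 9 rose (median log2 difference 2.77), among them the cyclin Ccnb2 by 3.07 ± 0.46 (adjusted p = 0.0021) and Ccnb1 by 2.59 ± 0.47 (0.00567). Against after NHD 0 of 9 passed with limma (1 at an unadjusted p under 0.05; median 0.58). Irx3, a homeodomain factor of the conduction system, was higher than before NHD by 0.65 ± 0.11 (adjusted p = 0.00471) and than after NHD by 0.55 ± 0.11 (0.0263). Hey2, a ventricular repressor of the Notch pathway, was lower than before NHD by a log2 difference of -0.80 ± 0.19 (0.0261) and lower than with control plasma (-0.78 ± 0.22; 0.0201). The helix-loop-helix inhibitor Id2 was at -1.49 ± 0.40 (0.0458) against before NHD, and the Tead cofactor Vgll4 was higher by 0.39 ± 0.11 (0.0491). The metabolic coactivator Ppargc1a (-0.97 ± 0.25; 0.036), the nuclear receptor Esrra (-0.40 ± 0.10; 0.0365) and titin (Ttn, -0.50 ± 0.13; 0.0369) were also lower than before NHD. Single markers of other cells also rose against before NHD, where 4.34% of all probe sets passed. Of 9 smooth muscle and pericyte markers 2 did, Rgs5 (1.84 ± 0.31; 0.0039) and Cspg4 (0.91 ± 0.24; 0.0411). So did 1 of 12 fibroblast (S100a4, 1.52 ± 0.28; 0.0063), 1 of 8 endothelial (Cdh5, 0.41 ± 0.10; 0.0276) and 1 of 4 epicardial markers (Aldh1a2, 1.16 ± 0.27; 0.0209). Of 7 leukocyte markers 0 passed with limma (1 at an unadjusted p under 0.05). Differences were positive for 6 of 9 smooth muscle and pericyte, 12 of 12 fibroblast, 8 of 8 endothelial, 4 of 4 epicardial and 5 of 7 leukocyte markers. Rgs5 (1.99 ± 0.31; 0.00556) and Cdh5 (0.59 ± 0.10; 0.00936) rose against after NHD too, each as the 1 called marker of its list, where 0.979% of all probe sets passed. The part of these cells in the other differences was not tested.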
